A study of Mus musculus with 11 samples.

Results

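This account describes how 8 expression arrays of CD172a+ classical dendritic cells differed by replicate number, out of 11 arrays in the series. The arrays of replicates 3 and 4 (4 arrays, called the second set here) are set against those of replicates 1 and 2 (4 arrays, the first set), and each set holds 2 control arrays and 2 arrays labelled Zeb2-deficient (CKO). The sets were chosen by the measured log2 values of these arrays, which had shown that they divide by replicate number, so the difference between them is described and not tested. All 19938 genes measured by a probe set with 1 gene symbol are members. The labels do not say what the arrays of a set have in common.

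The cells were sorted by flow cytometry from spleens of C57BL/6 mice. Control mice were Zeb2(fl/fl) without Cre, and CKO mice were Zeb2(fl/fl) with the CD11c-Cre transgene, which acts in cells that use the CD11c promoter and so not in dendritic cells alone. Both genotypes therefore carry floxed Zeb2, and CD11c-Cre itself is present in the CKO mice alone. All spleens were digested with collagenase B at 250 ug/ml and DNase I at 30 U/ml for between 30 min and 1 h at 37 °C, and RNA was amplified with the Ovation PicoSL kit. The sources used here give neither age nor sex, and do not say that replicates were separate animals. The p-values below therefore reflect the spread between samples alone, and that spread may be technical. Values are log2 expression values, on which a difference of 1 is 2-fold, and the 4 values of a set are given as the control arrays by replicate number, then the CKO arrays. Where a gene is given by a pair of averages, the first set comes first. In bulk samples such as these, fewer cells of a type and less RNA per cell cannot be told apart.

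CD172a+ cells are the splenic dendritic cell subset known as cDC2, which takes up antigen and presents it on MHC class II to CD4+ T cells. Freshly isolated dendritic cells respond quickly to handling: immediate-early transcription factors and heat shock proteins are induced within the time a tissue is digested, and maturation genes follow. Splenic red pulp macrophages, which recycle iron from old erythrocytes, share the organ with dendritic cells and express many of the same surface receptors.

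The labelled cell type was checked first. Sirpa, which encodes CD172a, read 11.19, 11.11, 10.97 and 10.94 in the first set and 10.75, 10.62, 10.39 and 10.65 in the second, and 6.00, 6.17 and 6.43 on the 3 control CD24+ arrays. Itgax, which encodes CD11c, read 10.98, 10.92, 11.23 and 11.27 in the first set and 10.40, 9.90, 10.37 and 10.62 in the second. Both genes were thus high on all 8 CD172a+ arrays, and both stood slightly lower in the second set. Zeb2, the targeted gene, read 8.23, 8.23, 8.52 and 8.32 in the first set and 8.26, 8.61, 9.07 and 9.24 in the second. It was not lower on the CKO arrays than on the control arrays of either set, and the position of its probe set within the gene is unknown here, so the label is used without a check on the deletion.

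The set accounted for 60% of the variance of gene values over the 8 arrays, genotype for 10.1%, their interaction for 6.81% and the spread between the 2 arrays of a genotype and set for 23.1%. For 6607 genes, 33.1% of the total, the set held more than 50% of that gene's variance. Array pairs within a set correlated at r of 0.981 to 0.994 over all genes, and pairs from different sets at no more than 0.971. All 4 second-set arrays lay above all 4 first-set arrays for 2411 genes (12.1% of genes tested) and below them for 2808 (14.1%). With a mean difference of at least 2-fold as well, 247 genes stood higher in the second set (1.24%) and 472 lower (2.37%). These 719 genes are called 2-fold genes below. The counts given for gene lists are to be read beside these shares of all genes. The genes nearest the 2-fold limit were Lilr4b (1.0007) and Map2k6 (-1.0009) inside it and Gm4876 (0.99905) and Itpr3os (-0.99998) outside it. The median difference of all genes was 0.05. The split depends on scaling: 34.4% of the 2-fold genes stood higher as deposited, 28.4% after each array was centred on its median and 50.4% after quantile normalization of the gene values (326 higher, 321 lower).

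The widest differences in both directions belonged to genes of the sex chromosomes. Xist, the noncoding RNA that coats the inactive X chromosome in cells with more than a single X, read 10.52, 10.84, 10.58 and 10.49 in the first set and 4.03, 3.87, 4.70 and 3.98 in the second. The difference of -6.46 was the largest of any gene that the naming rule covers. Eif2s3y, a Y-linked translation initiation factor gene, read 3.12, 2.94, 3.19 and 3.15 in the first set and 7.78, 9.04, 9.15 and 9.09 in the second. Uty, a Y-linked histone demethylase family gene, read 3.16, 3.44, 3.33 and 3.31 in the first set and 7.30, 7.16, 7.63 and 7.53 in the second. Kdm5d, a Y-linked H3K4 demethylase gene, read 4.09, 3.97, 3.84 and 4.08 in the first set and 6.97, 7.24, 7.09 and 7.04 in the second. Every first-set array was thus high for Xist and near the bottom of the scale for the 3 Y-linked genes, every second-set array was the reverse, and both genotypes took part. The mean differences were 5.67, 4.09 and 3.09 for the Y-linked genes.

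Of 9 genes on the Y chromosome, these 3 were the 2-fold genes. Usp9y (2.88 and 2.80 on average in the first and second set) and Zfy1 (3.66 and 3.75) were low on both sides. Sry averaged 7.32 and 7.09, above the median level of all genes (5.53) in both sets. It overlapped between sets, as did the remaining Y-linked genes. X-linked genes with a Y-linked partner were named after their values were seen. Kdm6a, the partner of Uty, read 8.45, 8.31, 8.38 and 8.41 in the first set and 6.79, 7.36, 7.4 and 7.4 in the second. Eif2s3x, the partner of Eif2s3y, read 9.66, 9.49, 9.49 and 9.32 in the first set and 8.93, 8.77, 8.09 and 8.40 in the second. For these 2 partners the sets did not overlap, with the second set lower. Kdm5c, the partner of Kdm5d, averaged 7.59 and 7.51 with overlapping arrays. Ddx3x averaged 10.58 and 10.42, also with overlap, and its partner Ddx3y is not among the 9 measured Y-linked genes. Over the whole X chromosome 5 of 739 genes stood at least 2-fold higher and 17 lower, together 2.98%, and the median difference was 0.07. Autosomes held 692 of the 719 2-fold genes (96.2%), near their share of all genes (95.8%).

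The 3 control CD24+ arrays, which belong to neither set, split in the same way. Xist read 10.33, 4.08 and 4.20 on CD24+ replicates 1, 2 and 3, and Eif2s3y read 2.77, 7.92 and 8.85. Replicate 1 was therefore high for Xist and low for Eif2s3y, and replicates 2 and 3 the reverse. Because the sets separate completely on these transcripts, the sex chromosome pattern and every other difference between the sets cannot be told apart in these data.

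**Figure D1:**
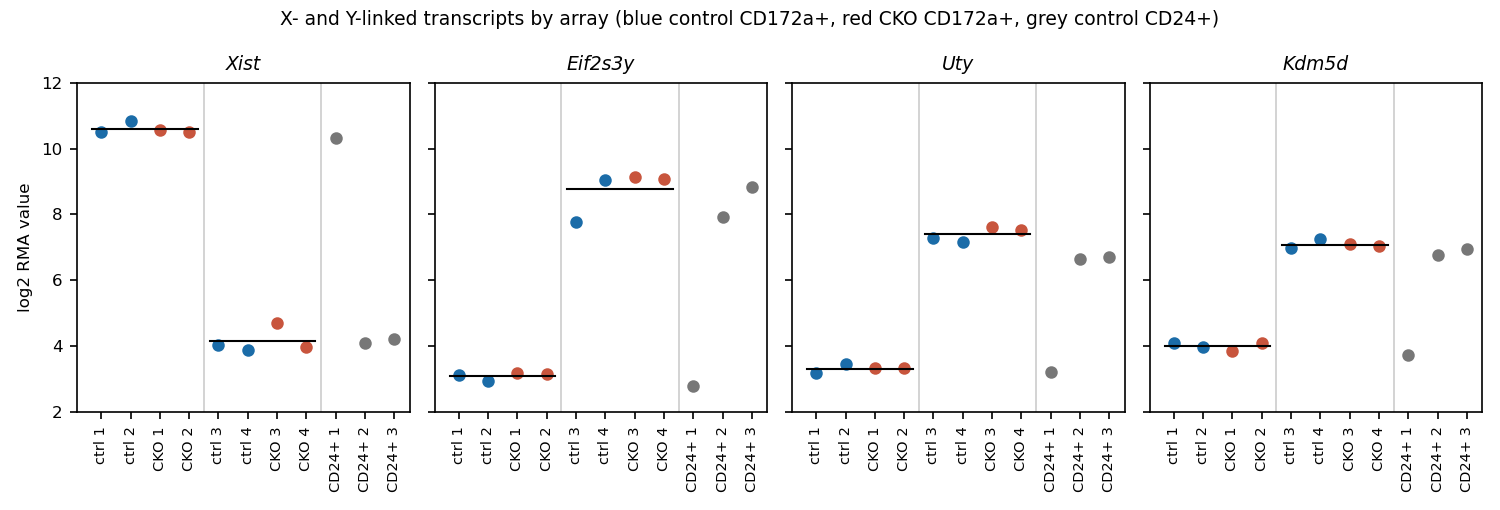
Log2 values of Xist, Eif2s3y, Uty and Kdm5d (vertical axis) on each of the 11 arrays (horizontal axis, genotype and replicate number; blue, control CD172a+; red, CKO CD172a+; grey, control CD24+; black lines, means of 4 arrays). Xist reads above 10 on all 4 arrays of replicates 1 and 2 and below 5 on all 4 of replicates 3 and 4, and the 3 Y-linked genes show the opposite order.

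Other genes far higher in the second set were Cd14 and C1qc, both with larger differences than Kdm5d. Cd14 is the co-receptor that passes lipopolysaccharide to Toll-like receptor 4, and C1qc encodes a chain of the complement component C1q. Cd14 read 6.03, 5.88, 5.55 and 5.65 in the first set and 8.69, 9.57, 9.19 and 8.96 in the second, a difference of 3.32 (means 5.78 ± 0.22 against 9.10 ± 0.38, SD, n = 4). Cd63, a tetraspanin of late endosomes, read 8.38, 8.79, 8.94 and 8.66 in the first set and 11.36, 11.68, 11.54 and 11.54 in the second, a difference of 2.84. In both genes the spread within a set was small beside the gap. The cytokine genes Il6 (2.51) and Il1a (2.5), the elongation factor gene Ell2 (2.22), the nectin-like receptor gene Pvr (2.22), the ion exchanger gene Slc24a1 (2.57), and Enkur (2.25), Zfp667 (2.20) and Eid3 (2.10) completed the 15 named, with Vcam1 below.

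The genes leading downwards were heat shock genes, histone genes and a mixed remainder. Atp5g2, a subunit of the mitochondrial ATP synthase, read 11.33, 11.22, 11.14 and 11.04 in the first set and 8.53, 8.13, 8.03 and 8.23 in the second, a difference of -2.95. Cyba, the p22phox subunit of the NADPH oxidase, read 10.53, 10.41, 10.51 and 10.52 in the first set and 8.80, 7.63, 7.92 and 8.25 in the second, a difference of -2.34. The replication factor-associated gene Pclaf (-2.67), the ubiquitin ligase subunit gene Asb2 (-2.41), the mitochondrial import gene Tomm5 (-2.30), Phf11c (-2.28) and the ribonuclease gene Rnase6 (-2.24) stood lower by more than 2 log2 units as well.

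**Figure D2:**
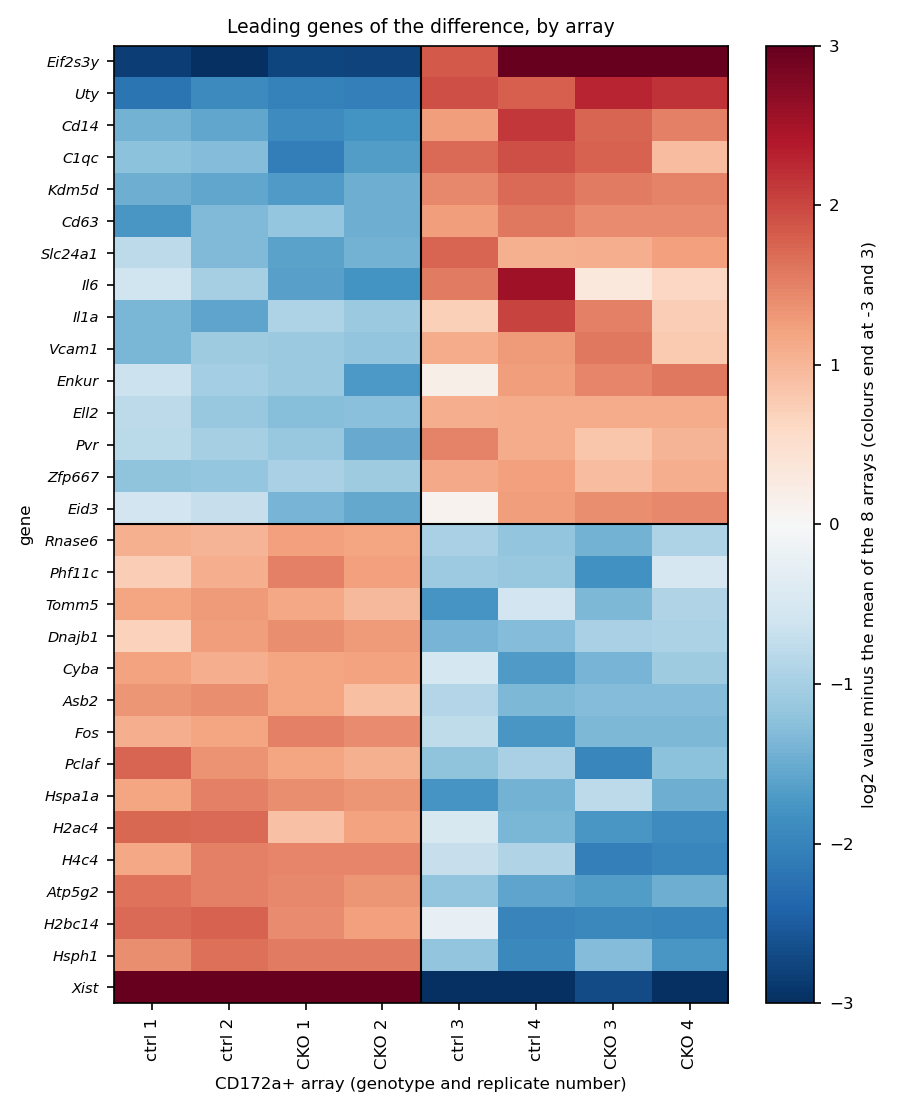
The 15 genes with the largest differences in each direction (rows, Eif2s3y at the top to Xist at the bottom) on the 8 CD172a+ arrays (columns), coloured by the log2 value minus the gene's mean over the 8 arrays. In every row the 4 arrays of replicates 1 and 2 keep clear of the 4 of replicates 3 and 4, which the choice of these genes fixes.

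Transcripts typical of splenic macrophages stood higher in the second set. Of 28 measured markers, 10 were at least 2-fold higher and 1 lower, where 1.24% and 2.37% of all genes were, and 17 lay wholly above and 2 wholly below. The list's median difference was 0.77 beside 0.05 for all genes, with 0.87 in control and 0.67 in CKO arrays. Without control replicate 4 it was 0.63. The summed level of the markers, on the log2 scale, was 11.95 to 12.07 on the first-set arrays and 12.21 to 12.48 on the second.

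C1qc read 6.01, 5.93, 5.15 and 5.55 in the first set and 8.92, 9.16, 8.99 and 8.15 in the second, a difference of 3.15 (means 5.66 ± 0.39 against 8.81 ± 0.45, SD, n = 4). C1qb, another C1q chain, read 5.63, 5.37, 5.46 and 5.34 in the first set and 7.80, 7.45, 6.91 and 6.94 in the second. The third chain, C1qa, averaged 5.49 and 5.86 with overlapping arrays, so the 3 chains differed in size. Vcam1, the adhesion molecule that marks red pulp macrophages, read 5.61, 5.92, 5.88 and 5.82 in the first set and 8.10, 8.27, 8.58 and 7.77 in the second, a difference of 2.37. Mrc1, the mannose receptor, read 4.15, 4.30, 4.23 and 4.09 in the first set and 5.78, 6.22, 6.68 and 6.01 in the second. For each of these genes but C1qa every second-set array exceeded every first-set array.

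The iron-handling genes of red pulp macrophages belonged to the same group in part. Spic, the transcription factor that specifies these cells, read 7.26, 7.61, 6.96 and 6.77 in the first set and 8.13, 8.76, 9.03 and 8.49 in the second. Slc40a1, the iron exporter ferroportin, averaged 4.23 and 5.51, Trf, transferrin, 6.68 and 8.37, and Hmox1, the haem oxygenase, 6.57 and 7.54. Each stood wholly higher in the second set, Hmox1 by less than 2-fold. The iron store and import genes were opposite: Ftl1, ferritin light chain, averaged 12.04 and 10.10, and Tfrc, the transferrin receptor, 8.39 and 6.83. Over all 24 measured genes of iron and haem handling 3 stood at least 2-fold higher and 2 lower, and the median was 0.06.

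Receptors for dead cells and opsonised particles also stood higher, in part the same genes. Of 25 scavenger and phagocytic receptors 4 were at least 2-fold higher and 0 lower, where 1.24% and 2.37% of all genes were. Without overlap 13 were higher and 1 lower, where 12.1% and 14.1% of all genes were, and the list's median was 0.33. The 4 were Mrc1, Mertk (1.47) and Axl (1.02), both receptor kinases for apoptotic cells, and Timd4 (1.05), a phosphatidylserine receptor. Of 19 complement and opsonin genes 4 were higher and 1 lower, the latter being Cfp, properdin (-1.68). Not every macrophage marker took part: Treml4, a receptor also expressed by some dendritic cells, read 8.12, 8.40, 7.79 and 7.90 in the first set and 7.26, 7.06, 6.97 and 6.38 in the second, so that the second set was lower. Apoe, the apolipoprotein, averaged 8.80 and 9.37 with overlapping arrays.

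On the CD24+ arrays C1qc read 5.09, 6.13 and 6.15 and Vcam1 6.26, 7.74 and 7.65, while Mrc1 read 4.23, 4.42 and 4.74. Vcam1 thus differed between CD24+ replicate 1 and replicates 2 and 3 by more than 1 log2 unit, and Mrc1 stayed below its second-set level in CD172a+ cells on all 3. The part of macrophages in these values was not tested.

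Markers of other cell types were compared in the same way, beside 1.24% of all genes at least 2-fold higher and 2.37% lower. Monocyte markers had 1 of 21 at least 2-fold higher and 2 lower (median 0.24), neutrophil markers 0 and 0 of 19 (0.08), T cell markers 0 and 0 of 17 (0.09), NK cell markers 1 and 0 of 17 (0.20) and plasmacytoid dendritic cell markers 0 and 2 of 19 (-0.08). Of 18 B cell markers 4 were lower and 0 higher (median -0.09). These were Cd37, a tetraspanin (-1.97), Cd79b, a chain of the B cell receptor (-1.43), the transcription factor gene Spib (-1.33) and the inhibitory receptor gene Cd22 (-1.10). After quantile normalization 3 were lower. Summed levels separated the sets for most cell types and were not particular to B cells: of 15 cell type lists, 4 had sums wholly higher in the second set (macrophages, neutrophils, T cells and platelets), 7 wholly lower (B cells, monocytes, plasma cells, plasmacytoid dendritic cells, CD172a+ subset markers, general dendritic cell markers, and erythroid cells) and 4 overlapped. The sum follows the brightest members and can oppose the median, as in monocytes (13.96 to 14.15 against 13.55 to 13.83).

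Erythroid markers had 0 of 15 higher and 1 lower, and platelet (13 measured), stromal and endothelial (21), and basophil and mast cell (12) markers had 0 in either direction. Plasma cell markers (8) likewise had 0 and 0. Neutrophil and T cell medians changed sign under quantile normalization (-0.02 and -0.01).

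Dendritic cell markers leaned lower on the deposited scale, and less so after quantile normalization. For comparison, 2.37% of all genes and 7.62% of the 3988 genes with the highest levels were at least 2-fold lower. Of 27 markers of the CD172a+ subset 6 were at least 2-fold lower and 0 higher (median -0.29), and after quantile normalization 2 and 1 (median -0.14). Ltb, lymphotoxin beta, read 9.74, 9.62, 10.12 and 10.17 in the first set and 7.46, 8.05, 7.92 and 7.85 in the second, a difference of -2.09. Cd4 averaged 9.04 and 7.92, Notch2, the receptor that this subset depends on, 8.56 and 7.5, and the lectin gene Cd209a 8.56 and 7.53. Among 12 general dendritic cell genes 2 were lower, Bcl11a (-1.17) and Cbfa2t3 (-1.13), both transcriptional regulators, and the median was -0.37. After quantile normalization 0 were lower and the median was -0.18. Flt3, the growth factor receptor of the lineage, averaged 9.84 and 9.48 with overlap. Of 25 markers of the other subset, cDC1, 2 were higher and 2 lower: Ly75, the uptake receptor DEC-205, averaged 6.09 and 7.97, and Cd8a 7.02 and 5.71.

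**Figure D3:**
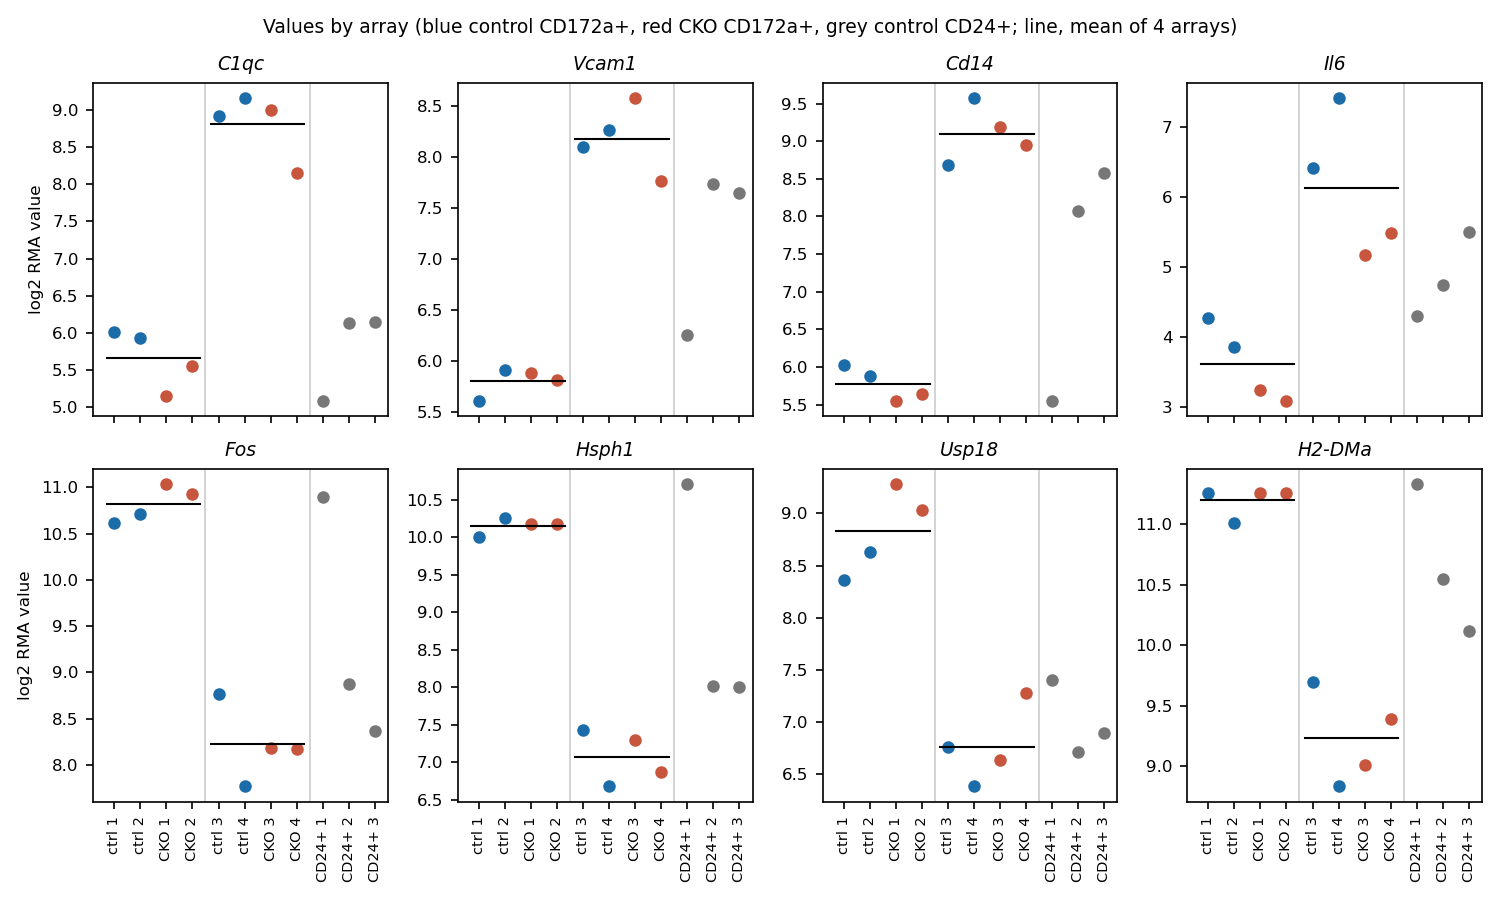
Log2 values of 8 genes (a panel each with its own vertical axis) on all 11 arrays (blue, control CD172a+; red, CKO CD172a+; grey, control CD24+; black lines, means of 4 CD172a+ arrays). In C1qc, Vcam1, Cd14 and Il6 all 4 arrays of replicates 3 and 4 lie above those of replicates 1 and 2, and in Fos, Hsph1, Usp18 and H2-DMa all 4 lie below.

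Immediate-early genes, which encode transcription factors and regulators transcribed within minutes of a stimulus, stood lower in the second set more often than higher on the deposited scale. Of 34 measured, 10 were at least 2-fold lower and 2 higher, where 2.37% and 1.24% of all genes were. Without overlap 18 were lower and 8 higher, where 14.1% and 12.1% of all genes were. Among the 3988 genes with the highest levels 7.62% were at least 2-fold lower. The list's median was -0.46. After quantile normalization 5 were lower and 4 higher, with a median of -0.26, so the lean of this list depends largely on the scaling. Fos, a subunit of the AP-1 factor, read 10.61, 10.71, 11.04 and 10.93 in the first set and 8.77, 7.77, 8.18 and 8.17 in the second, a difference of -2.60 (means 10.82 ± 0.20 against 8.22 ± 0.41, SD, n = 4). Its partner Jun read 11.58, 11.74, 11.66 and 11.79 in the first set and 10.31, 10.04, 10.22 and 10.25 in the second. Ier2 averaged 9.51 and 7.75, Egr1 10.31 and 8.95, Egr2 11.22 and 9.95, Nr4a1 12.01 and 10.86 and Atf3 12.21 and 11.07. Each still averaged above the median level of all genes, 5.53, in the second set. Nr4a3, a nuclear receptor gene of the same class, was opposite and read 10.43, 10.40, 10.26 and 10.25 in the first set and 11.86, 11.61, 11.58 and 11.72 in the second.

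Heat shock genes encode chaperones that are induced by protein damage. Of 17 measured, 4 were at least 2-fold lower and 0 higher (9 and 2 without overlap), with a median of -0.63, or -0.32 after quantile normalization. Hsph1, an HSP70 nucleotide exchange factor, read 10.01, 10.26, 10.18 and 10.18 in the first set and 7.44, 6.68, 7.30 and 6.87 in the second, a difference of -3.09. Hspa1a, the inducible HSP70, read 10.98, 11.33, 11.21 and 11.14 in the first set and 8.04, 8.39, 9.03 and 8.35 in the second. Dnajb1, its co-chaperone, averaged 9.66 and 7.35. Hsph1 on CD24+ replicates 1, 2 and 3 read 10.71, 8.01 and 8.0, so that CD24+ replicate 1 stood near the first-set CD172a+ arrays. Of 23 genes of the unfolded protein response 3 were lower and 0 higher: Pdia6 (-1.33), Herpud1 (-1.21) and Hspa5 (-1.17), the chaperone BiP. The median was -0.17. After quantile normalization 1 was lower and the median was -0.09. For comparison, 2.37% of all genes were at least 2-fold lower. Among the 3988 genes with the highest levels 7.62% were, with a median of -0.16.

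Inflammatory genes were divided. Of 32 NF-kB targets and mediators 5 were at least 2-fold higher and 4 lower, with a median of -0.07 that was 0.04 after quantile normalization. Il6 read 4.27, 3.86, 3.24 and 3.09 in the first set and 6.42, 7.42, 5.18 and 5.49 in the second, with control arrays above CKO arrays within each set. Il1a read 3.46, 3.27, 3.92 and 3.73 in the first set and 5.56, 6.87, 6.36 and 5.58 in the second. Cxcl2, a neutrophil attractant, averaged 6.55 and 8.30, and Tnfaip2 6.28 and 8.21. Against these, Ccl4 read 12.63, 12.73, 12.35 and 12.22 in the first set and 11.04, 10.59, 10.72 and 10.78 in the second, Ccl3 averaged 12.94 and 11.72, and Nfkbid, a nuclear I-kappa-B protein gene, 9.48 and 7.88. The higher cytokines were at low to middle levels and the lower chemokines near the top of the scale. Among 37 chemokines and receptors 7 were higher and 2 lower (median 0.28), with Cxcl9 (1.98), Ccr3 (1.43) and Ccl22 (1.20) among the higher.

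Maturation genes of dendritic cells, which arm them to activate T cells, stood higher more often than lower. Of 23 measured, 5 were at least 2-fold higher and 2 lower, where 1.24% and 2.37% of all genes were. Without overlap 13 were higher and 5 lower, and the list's median was 0.48. Cd86 read 9.77, 9.33, 9.38 and 9.31 in the first set and 10.99, 10.92, 10.91 and 11.27 in the second, a difference of 1.57. Its relative Cd80 averaged 9.43 and 10.84, Il12b, the p40 chain of interleukin 12, 6.66 and 8.10, and Stat4 7.79 and 9.57. Cd83 was opposite and read 11.51, 11.58, 11.59 and 11.57 in the first set and 11.14, 9.46, 9.52 and 9.97 in the second. Control replicate 3 stood between the first set and the other second-set arrays in Cd83.

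Toll-like receptor genes and their partners gave 2 higher and 2 lower of 23. Ly96, the MD-2 partner of Toll-like receptor 4, averaged 5.91 and 7.25 and stood on the same side as Cd14. Unc93b1, which carries endosomal receptors to their compartment, averaged 10.28 and 8.78, and Tlr13 8.74 and 7.38, both lower.

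Antigen presentation genes leaned lower, by less after quantile normalization. Of 14 genes of the MHC class II pathway 3 were at least 2-fold lower and 0 higher (7 and 1 without overlap). The list's median was -0.40, or -0.23 after quantile normalization. Of all genes 2.37% were at least 2-fold lower and 14.1% lower without overlap. Among the 3988 genes with the highest levels 7.62% were at least 2-fold lower, with a median of -0.16. H2-DMa, a chain of the peptide exchange factor, read 11.26, 11.01, 11.26 and 11.26 in the first set and 9.69, 8.83, 9.01 and 9.39 in the second, a difference of -1.97 (means 11.20 ± 0.12 against 9.23 ± 0.39, SD, n = 4). Ciita, the transactivator of the pathway, read 9.28, 9.26, 9.14 and 9.06 in the first set and 8.14, 7.98, 7.86 and 8.06 in the second. Ctss, the protease that trims the invariant chain, averaged 11.08 and 10.02. The class II molecules themselves differed less: H2-Aa read 12.42, 12.36, 12.44 and 12.44 in the first set and 12.09, 11.75, 11.97 and 12.17 in the second. H2-Eb1 averaged 12.51 and 11.93, H2-Ab1 12.51 and 12.50 and the invariant chain Cd74 12.60 and 12.23. These values lie near the upper end of the array's range, where differences can be compressed. Whether they were compressed here was not tested. H2-Ab1 and Cd74 overlapped between sets.

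The MHC class I pathway is read beside the same shares, 2.37% of all genes and 7.62% of the highest level bin. Of its 16 genes 2 were at least 2-fold lower and 0 higher (median -0.36, or -0.21 after quantile normalization). Both are immunoproteasome subunits: Psmb9 read 11.61, 11.44, 11.71 and 11.68 in the first set and 9.92, 9.38, 9.41 and 9.31 in the second, and Psmb10 averaged 9.81 and 8.62. Tap1, a subunit of the peptide transporter, averaged 8.70 and 7.74 without overlap.

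Interferon-stimulated genes were lower in 7 of 34 by at least 2-fold and higher in 1, where 2.37% and 1.24% of all genes were. Without overlap 20 were lower and 2 higher, where 14.1% and 12.1% of all genes were. Among the 3988 genes with the highest levels 7.62% were at least 2-fold lower. The list's median was -0.73, with -0.49 in control and -0.90 in CKO arrays, and -0.59 after quantile normalization. Usp18, a protease that restrains interferon signalling, read 8.36, 8.63, 9.28 and 9.03 in the first set and 6.77, 6.39, 6.63 and 7.28 in the second, a difference of -2.06. Stat2, a subunit of the interferon-activated factor ISGF3, read 8.42, 8.43, 8.88 and 8.73 in the first set and 6.94, 6.73, 6.91 and 7.05 in the second. Oas2 averaged 8.96 and 7.19, Ifit2 6.97 and 5.48 and Mx2 6.19 and 4.75, which are antiviral effectors. In the first set Usp18 and Stat2 were higher on both CKO arrays than on both control arrays. Cxcl9, a chemokine induced by interferon gamma, was the gene that stood higher, with 8.42, 8.48, 8.96 and 8.91 in the first set and 10.52, 10.84, 10.54 and 10.79 in the second. Irf7 averaged 7.35 and 6.73 and Ifit1 7.15 and 6.80, the latter with overlap.

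Cell cycle genes were lower in 11 of 50 by at least 2-fold and higher in 0 (25 and 0 without overlap), with a median of -0.52. Of all genes 2.37% were at least 2-fold lower and 14.1% were lower without overlap. Among the 3988 genes with the highest levels 7.62% were at least 2-fold lower. After quantile normalization 8 cell cycle genes were lower and 0 higher, with a median of -0.43. Cdk1, the mitotic kinase, read 8.41, 8.13, 7.59 and 7.44 in the first set and 6.44, 7.09, 6.85 and 6.36 in the second. Rrm2, a subunit of ribonucleotide reductase, averaged 7.45 and 6.21, Mcm6, a helicase subunit, 8.44 and 7.29, Plk1 6.54 and 5.34 and the G1 cyclin gene Ccnd1 10.90 and 9.66. Mki67, the usual proliferation marker, averaged 8.83 and 8.90 with overlap, unlike these genes.

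Replication-dependent histone genes, whose transcripts are made in S phase and carry no poly(A) tail, stood well below the first set. Of 27 measured, 16 were at least 2-fold lower and 0 higher, where 2.37% and 1.24% of all genes were. The list's median was -1.25 (-1.17 after quantile normalization). H4c4 read 10.80, 11.16, 11.12 and 11.12 in the first set and 8.94, 8.73, 7.60 and 7.68 in the second, a difference of -2.81. H2bc14 read 10.36, 10.41, 10.09 and 9.88 in the first set and 8.41, 6.68, 6.71 and 6.70 in the second, a difference of -3.06. Histone genes are near-identical copies of each other, so a probe set may read several of them.

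Small nucleolar RNA genes shared this direction in part, and the part of transcript type in these values was not tested. Of 54 small nucleolar RNA genes 11 were at least 2-fold lower and 0 higher (median -0.47), with Snora70 averaging 9.98 and 7.16 and Snord14e 11.38 and 8.83. Probe sets of these genes may also read the host gene's intron.

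**Figure D4:**
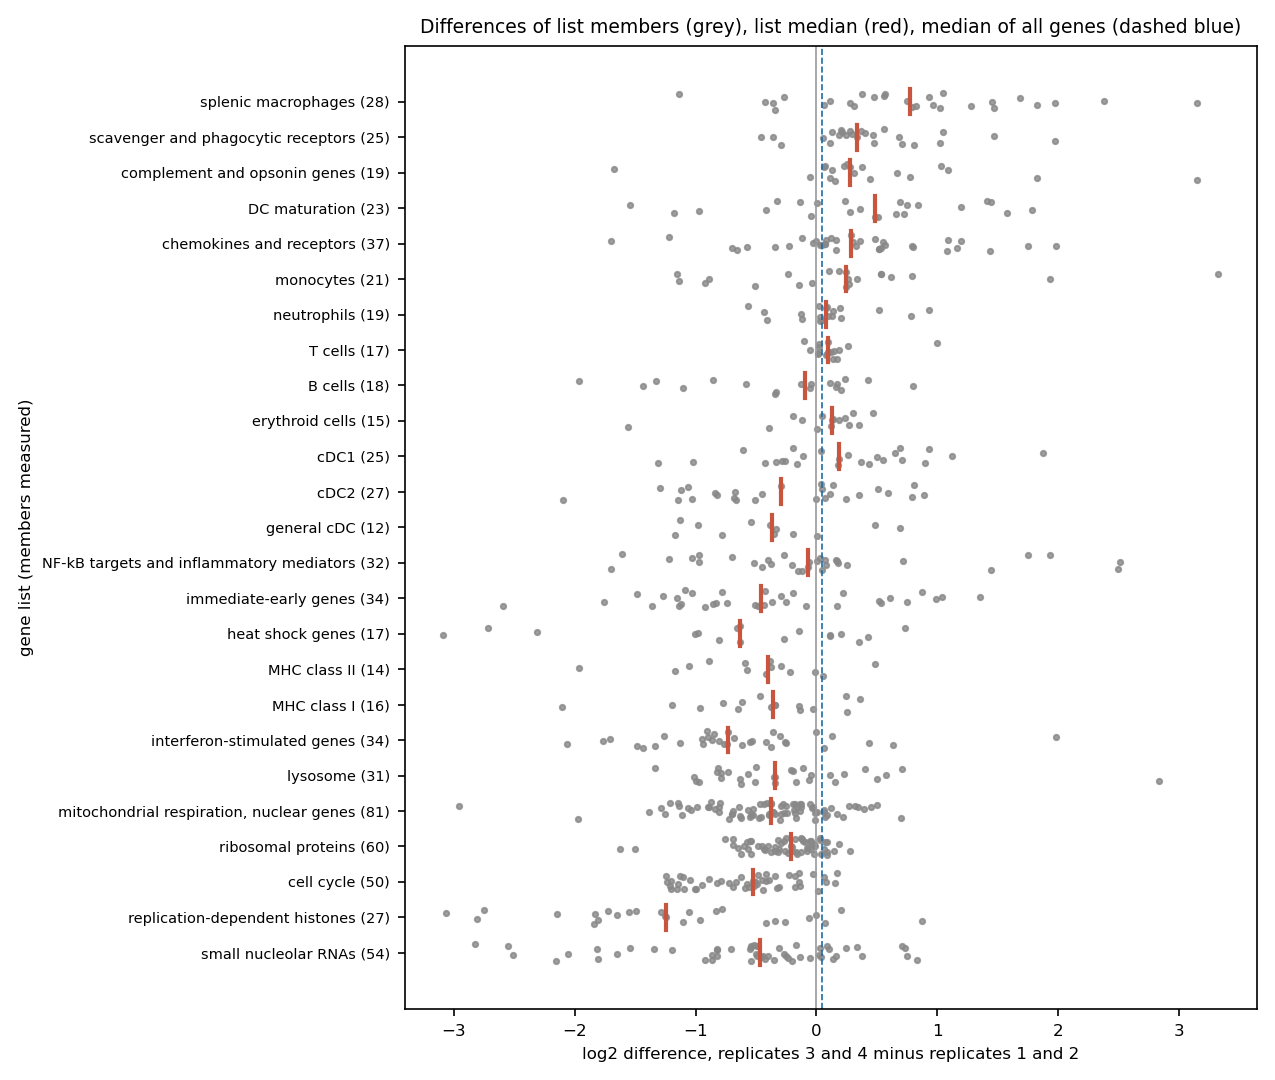
Log2 difference between the sets (horizontal axis) for every measured member of 25 gene lists (rows, number of members in brackets; grey points, genes; red bars, list medians; dashed blue line, median of all genes). Splenic macrophage markers have the highest median of the lists shown (0.77) and replication-dependent histones the lowest (-1.25).

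The described groups differ in how their promoters are built, which is shown here as reference sequence from RefSeq (GRCm38.p6). For 4 groups, a gene with a match, chosen by its difference, is printed over the 250 bases before its start, on the gene's strand. Not every gene was eligible, so the printed gene need not have the largest difference among those with a match. The cell cycle gene was to hold both motifs searched for that group. Matches to a group's own motifs are in capitals, and any other motif is left in lower case. Heat shock elements (HSE), serum response elements (SRE), interferon-stimulated response elements (ISRE), the cell cycle element CHR (TTTGAA) and the CCAAT box (CCAAT) were searched on both strands, and CHR and CCAAT matches do not overlap in the Cdk1 window. Hspe1, which encodes the mitochondrial chaperone HSP10, holds 2 overlapping HSE matches, beginning 89 and 84 bases before the start, at chr1:55087898-55088147.
Hspe1: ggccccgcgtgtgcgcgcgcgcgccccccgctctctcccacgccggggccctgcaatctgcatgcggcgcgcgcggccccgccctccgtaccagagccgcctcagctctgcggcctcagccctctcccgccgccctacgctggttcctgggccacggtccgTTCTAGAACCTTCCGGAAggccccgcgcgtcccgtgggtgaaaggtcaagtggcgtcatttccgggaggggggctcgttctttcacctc
Egr2 holds an SRE match 72 bases before the start, at chr10:67537619-67537868.
Egr2: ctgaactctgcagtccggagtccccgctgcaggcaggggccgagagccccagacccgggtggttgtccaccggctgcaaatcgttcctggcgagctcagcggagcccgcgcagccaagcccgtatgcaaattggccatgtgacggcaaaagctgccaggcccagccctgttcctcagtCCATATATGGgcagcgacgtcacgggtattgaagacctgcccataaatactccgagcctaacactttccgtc
Stat2 holds an ISRE match 222 bases before the start, at chr10:128270248-128270497.
Stat2: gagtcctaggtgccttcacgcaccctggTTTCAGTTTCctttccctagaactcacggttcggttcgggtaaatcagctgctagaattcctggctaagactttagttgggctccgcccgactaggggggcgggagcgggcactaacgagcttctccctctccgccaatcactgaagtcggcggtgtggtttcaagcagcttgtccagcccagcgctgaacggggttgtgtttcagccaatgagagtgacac
Cdk1 holds 2 CHR and 3 CCAAT matches, at chr10:69352913-69353162 on the minus strand.
Cdk1: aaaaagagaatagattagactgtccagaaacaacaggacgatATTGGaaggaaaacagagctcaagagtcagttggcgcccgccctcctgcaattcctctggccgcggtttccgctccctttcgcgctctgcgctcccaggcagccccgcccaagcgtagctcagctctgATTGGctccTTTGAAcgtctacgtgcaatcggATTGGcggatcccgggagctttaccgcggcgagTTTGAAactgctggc

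Over 19177 promoter windows of 15614 measured genes, each reaching from 250 bases before the start to 50 after it, an HSE match stood in 0.49% and in 25% of 20 windows of heat shock genes. An ISRE match stood in 3.27% of all windows and 43.8% of 32 windows of interferon-stimulated genes. An SRE match stood in 0.0626% of all windows and 8.11% of 37 windows of immediate-early genes. CHR stood in 14.8% of all windows and 47.6% of 42 windows of cell cycle genes, and CCAAT in 37.4% and 69%. These lists were written from known function, so the shares describe the lists and not the difference between sets. Hspe1 itself averaged 11.81 and 11.01, without overlap between sets.

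MicroRNA genes, whose short products pair with messenger RNAs through the seed at bases 2 to 8, were measured by probe sets for the gene or precursor and not for the mature arm. Of 302, 9 were at least 2-fold higher and 5 lower, where 1.24% and 2.37% of all genes were. Without overlap 69 (22.8%) were higher and 12 (3.97%) lower, where 12.1% and 14.1% of all genes were. The list's median was 0.19, or 0.13 after quantile normalization. The 2-fold counts are small, so the 2-fold genes are described singly below and not as a result about microRNAs. Of these 14 genes 12 matched the RefSeq table, with 22 mature arms and 21 seeds. Mature arms of 5 of them, chosen for large differences, are shown with the seed in capitals.
mmu-miR-155-5p: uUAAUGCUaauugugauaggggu
mmu-miR-680: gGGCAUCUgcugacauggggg
mmu-miR-350-3p: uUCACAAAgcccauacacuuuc
mmu-miR-142a-5p: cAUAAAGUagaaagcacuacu
mmu-miR-142a-3p: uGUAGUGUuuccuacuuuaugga
mmu-miR-19b-3p: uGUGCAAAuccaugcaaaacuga
Mir155, whose products regulate dendritic cell activation and which lies at chr16:84714143-84714165 for the 5p arm, read 4.84, 5.10, 5.12 and 5.0 in the first set and 6.90, 7.19, 7.14 and 7.46 in the second, a difference of 2.16. Mir142, whose products are abundant in blood cells, read 8.70, 8.49, 8.5 and 8.17 in the first set and 7.4, 6.13, 7.12 and 8.0 in the second. The sets did not overlap for either gene. Mir680-1 (2.07) and Mir680-2 (1.05) share the mature sequence printed. Mir350 averaged 6.44 and 7.92, and Mir19b-1, of a cluster known to promote proliferation, averaged 5.89 and 4.62.

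Genes of highly expressed housekeeping machinery are read against their level bin, since 7.62% of the 3988 genes with the highest levels were at least 2-fold lower and 2.61% higher, with a median of -0.16. Of 81 nuclear genes of mitochondrial respiration 11 were at least 2-fold lower and 0 higher (41 and 3 without overlap), with a median of -0.37. After quantile normalization 6 were lower and the median was -0.18. Atp5g2, described above, and Uqcr11 (9.11 and 7.14), a subunit of complex III, stood furthest down. Of 60 ribosomal protein genes 2 were lower and 0 higher (31 and 2 without overlap), with a median of -0.21 that was -0.05 after quantile normalization. The 2-fold count is near the 2.37% of all genes and under the share of the highest level bin. That count is therefore no result about ribosomal proteins. Without the 2-fold limit 51.7% of them lay wholly lower and 3.33% wholly higher, where 14.1% and 12.1% of all genes did. The shares without overlap were not taken within the highest level bin, so the part of level in them was not tested. Rplp1 averaged 13.19 and 11.56 and Rps3 11.56 and 10.06. Lysosome genes had 2 of 31 lower and 1, Cd63, higher (median -0.34), and 1 and 1 after quantile normalization (median -0.19).

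Differences also varied with the level of the genes. In 5 equal bins of mean level from lowest to highest, the median difference was 0.10, 0.11, 0.07, -0.10 and -0.16, and the highest bin held 104 of the higher and 304 of the lower 2-fold genes. The standard deviation of gene values on an array was 1.85 to 1.93 in the first set and 1.76 to 1.81 in the second. The part of level and spread in the lists was not tested beyond the quantile-normalized values given above.

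The share of 2-fold genes also varied with gene length. Among 9519 protein-coding genes above the median level, in 5 equal bins of genomic span, 7.98% of the bin of shortest genes were at least 2-fold lower and 1.16% of the bin of longest genes, while 1.37% and 2.99% were higher. The median differences of these bins, from shortest to longest, were -0.08, -0.13, -0.12, -0.09 and -0.03, so they did not fall steadily with shorter span. The rank correlation of span with the difference was 0.089 across these genes, which share arrays and amplification and are not independent. Probe sets without a gene symbol were lower in 5.05% and higher in 2.05% of 6767. Those with several symbols were lower in 4.57% and higher in 0.802% of 1621.

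The remaining lists were small or mixed. Of 19 circadian clock genes 2 were at least 2-fold higher and 1 lower. Ciart, a repressor of the clock, read 6.96, 6.48, 7.27 and 7.5 in the first set and 5.52, 5.14, 5.08 and 5.07 in the second. Nfil3 (1.06) and Rora (1.02) were the 2 higher, and Dbp averaged 6.31 and 5.94. Of 13 glucocorticoid-responsive genes 2 were higher, the metallothioneins Mt1 (1.08) and Mt2 (1.05), and 1 lower, the phosphatase gene Dusp1 (-1.09). Of 22 genes of hypoxia and glycolysis 2 were higher, Vegfa (1.64) and Ndrg1 (1.43), and 0 lower. Cholesterol synthesis had 0 and 0 of 16. Immunoglobulin (11) and T cell receptor (9) segments had 0 in either direction, and olfactory and vomeronasal receptors, which serve as genes with little expression here, had 4 of 1194 higher and 0 lower with a median of 0.13.

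Whether the difference between sets was the same in both genotypes is a question that the choice of sets did not settle, and it was tested as an interaction in limma. No gene passed at an adjusted p below 0.05 after Benjamini-Hochberg adjustment (0 of 19938, 0%), and 1258 genes, 6.31%, had an unadjusted p below 0.05. With 2 arrays for each genotype and set and 4 residual degrees of freedom this test sees only large effects, and the result does not show that the genotypes were alike. Across genes, the difference in control arrays correlated with that in CKO arrays at r of 0.796, a description over genes that share arrays.

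The smallest adjusted p belonged to Mir29b-1 (0.0577), which read 2.98, 2.72, 2.48 and 2.61 in the first set and 2.76, 2.94, 4.50 and 4.52 in the second, so that the second-set CKO arrays stood apart at an otherwise low level. Its interaction was 1.97 (SE 0.195). Lyz1, a lysozyme gene, read 7.86, 7.27, 6.75 and 6.48 in the first set and 10.49, 10.46, 7.82 and 7.32 in the second, an interaction of -1.95 (adjusted p = 0.406 in limma). Its near-identical neighbour Lyz2 averaged 10.11 and 9.88 with an interaction of -0.60 (adjusted p = 0.80 in limma), and array probes may read both. Apoe read 8.12, 8.39, 9.47 and 9.23 in the first set and 9.41, 9.37, 9.41 and 9.28 in the second, an interaction of -1.14 (adjusted p = 0.453 in limma): it differed between sets on control arrays and hardly on CKO arrays. The interactions of C1qc (0.14), Cd14 (0.30), Fos (-0.42) and Zeb2 (0.53) did not pass either.

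**Figure D5:**
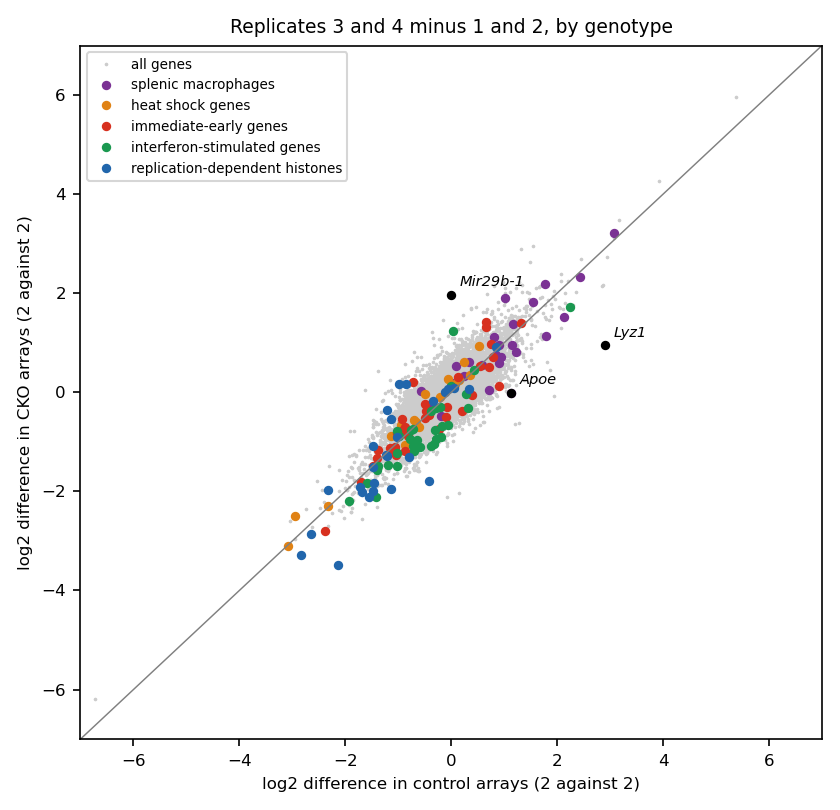
Log2 difference between the sets in control arrays (horizontal axis, 2 arrays against 2) and in CKO arrays (vertical axis, 2 against 2) for all 19938 genes (grey) and 5 lists (colours); the diagonal marks equal differences. Points of the splenic macrophage list lie mostly to the upper right, those of histone and heat shock genes to the lower left, and Lyz1 and Apoe lie below the diagonal.

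The CD24+ arrays were also set against the difference as a whole. Each array's deviations from the CD24+ mean correlated across 19938 genes with the CD172a+ set difference at r of -0.665 for replicate 1, 0.501 for replicate 2 and 0.525 for replicate 3. These values sum around the mean of only 3 arrays and are not independent of each other. The 247 higher genes deviated on these arrays by a median of -0.63, 0.26 and 0.38, and the 472 lower genes by 0.49, -0.22 and -0.27. Cd14 read 5.55, 8.08 and 8.57 there, Cd63 8.04, 11.17 and 11.42, Fos 10.89, 8.88 and 8.37 and H2-DMa 11.33, 10.55 and 10.12. In each of these 4 genes CD24+ replicate 1 lay on the side of the first CD172a+ set relative to replicates 2 and 3.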

How the data were processed

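Gene expression was measured on Affymetrix mouse whole-transcript gene arrays. The deposited log2 values, 1 for each probe set, come from RMA (the method named in the submitters' processing notes), which corrects for background, normalizes probes between arrays by quantiles and summarises each probe set. Version, probe filter and genome build are not given in the sources used here. No array coordinates are printed.

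Of 30177 probe sets, 21789 carried 1 gene symbol, and for each of 19938 genes the probe set of highest mean was kept (999 genes had several). The contrast is the mean of 4 arrays minus the mean of 4 arrays, with both genotypes equally present in each. It was described by group overlap and a 2-fold limit, with no test, because the sets were chosen from these values. The set-by-genotype interaction was fitted over all genes with limma 3.58.1 in R 4.3.3 (lmFit and eBayes, two-sided, Benjamini-Hochberg adjustment, threshold 0.05). The fitting script was tested on simulated data. Tables and figures were made in Python 3.11.15 with pandas 2.3.3, numpy 2.4.6 and matplotlib 3.10.9. The number of arrays limits the precision.

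The members, the gene lists and the naming rule were chosen with earlier results of these data known. The rule named the 15 genes with the largest difference in each direction among those without overlap, leaving out small nucleolar and micro RNAs, predicted genes and clones, T cell receptor and immunoglobulin segments, and vomeronasal and olfactory receptors. Further names were up to 6 members of each list with the largest absolute difference, 10 genes of the interaction, and a fixed set. The X-linked partner genes, Apoe, Mir680-2 and Retnla were named after values were seen. Alternatives were the mean of all probe sets, genes above the median level, centred arrays, other fold limits, 1 genotype alone, leaving out each array, other limma settings, and, added after seeing the data, quantile normalization of gene values and a crossed replicate block.

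The labels do not say whether replicate numbers pair control with CKO arrays. Deviations from the mean of each genotype and set correlated at r of 0.151 for numbers 1 and 2 and -0.158 for numbers 3 and 4. With 2 arrays for each genotype and set, the deviations of the 2 numbers mirror each other. Each set thus gives a single correlation over genes that share arrays, which cannot decide the pairing.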

Additional observations from a re-analysis of the deposited data

Results flagged for a closer look

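In 7 of 108 groups of 4 arrays checked (54 named genes in each set), 1 array stood far from the other 3 by Dixon's criterion at the 95% level, which chance meets in about 1 in 20 groups. The share was 6.48%. Control replicate 3 was the distant array in 4 of them. It read 7.78 for Eif2s3y where the other second-set arrays read 9.04 to 9.15, 7.31 for Eid3 where they read 8.45 to 8.64, 8.41 for H2bc14 where they read 6.68 to 6.71, and 7.07 for Asb2 where they read 6.60 to 6.66. In each of these 4 genes it lay towards the first set without reaching it.

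The other 3 flags fell on different arrays. Control replicate 1 read 10.80 for H4c4 against 11.12 to 11.16 on the other first-set arrays. Control replicate 2 read 12.38 for Atf3 against 12.13 to 12.18. CKO replicate 3 read 5.62 for Dbp against 6.00 to 6.07.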

How the results depend on the processing

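Of the 719 genes, 0 were called the opposite way after centring arrays, after quantile normalization or with the mean of all probe sets. With 1 genotype alone, 1 array left out or genes above the median level, no opposite call was possible. Those settings reuse the same values, in which the sets already do not overlap. At a 1.5-fold limit 739 genes stood higher and 1430 lower, and at a 3-fold limit 59 and 92. Leaving out 1 array gave 233 to 290 higher and 435 to 512 lower. Quantile normalization, which gave 326 and 321, shared 232 and 316 genes with the deposited scale.

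The splenic macrophage median was 0.93 over genes above the median level, 0.87 in control arrays alone, 0.67 in CKO arrays alone and 0.63 to 0.82 with 1 array left out. The interferon-stimulated median was -0.49 in control arrays, -0.90 in CKO arrays, -0.59 after quantile normalization and -0.83 to -0.67 with 1 array left out. The immediate-early median was -0.26 after quantile normalization and -0.57 to -0.36 with 1 array left out. The same ranges were -0.51 to -0.33 for MHC class II and -0.60 to -0.49 for cell cycle genes. Of 43 lists, 35 kept the sign of their median in all 14 settings. Called reversed were neutrophils (-0.0185) and T cells (-0.0114) after quantile normalization, erythroid cells (-0.39) and iron and haem handling (-0.28) over genes above the median level, and Pdia4 (0.0897) as the mean of all its probe sets. The cause was not tested.

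For the interaction, 1 gene passed in limma with a trend and robust variance (Mir29b-1, adjusted p = 0.0448), over all 11 arrays (0.0286) and after quantile normalization (0.0420), and 1 without control replicate 3 (Retnla, -2.78, adjusted p = 0.00389), where a lone array is assumed to vary like the others. Leaving out any other array gave 0. With the replicate number as a block 0 genes passed (smallest adjusted p 0.382), and with numbers 3 and 4 crossed 0 passed (0.152), so the block changed no call.

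With 2 arrays for each genotype and set, small interactions could not be seen. Values near the bottom of the scale are close to background, where RMA shrinks differences.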
